A study of Mus musculus with 12 samples.

Results

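Immediate early genes are switched on within minutes of a growth factor, cytokine or stress signal, from factors already present in the cell and without new protein synthesis. The 10 genes described here are *Fos*, *Fosb*, *Jun*, *Junb*, *Jund*, *Ier2*, *Ier3*, *Myc*, *Atf3* and *Zfp36*, chosen by symbol and matched to 10 of the 40551 Ensembl genes counted in mouse liver total RNA. All 10 were matched, and 9 of them were among the 15070 genes with enough counts to be tested, *Fosb* being the exception. The livers were of 4 genotypes with 3 libraries each: wild type (WT), *Sting1*-/-, *Mcl1*Δhep and the double mutant *Mcl1*Δhep *Sting1*-/-. *Mcl1*Δhep mice carry floxed *Mcl1* and a Cre recombinase driven by the albumin promoter (Alb-Cre), which removes this antiapoptotic gene from cells of the hepatocyte lineage and leaves it in the other cells of the liver. *Sting1*-/- mice lack STING1, the adaptor of cytosolic DNA sensing, in all cells, and the double mutants came from a cross of both lines. The labels give no age or sex. The text of the study places its transcriptomes of *Mcl1*Δhep livers at 2 months of age, animals of both sexes were used, and no age was found for the RNA of the livers without *Sting1*.

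FOS, FOSB, JUN, JUNB, JUND and ATF3 are basic leucine zipper proteins that pair to form activator protein 1 (AP-1) and related dimers on DNA. MYC drives growth and division, ZFP36 binds AU-rich elements in the 3′ untranslated region (UTR) of messenger RNAs and has them degraded, IER2 is a nuclear protein, and IER3 acts on cell survival. In liver, JUN and MYC are best known from the first hours of regeneration after partial hepatectomy, and ATF3 from the response to stress. Their RNAs are short-lived, and handling of a tissue before freezing is also a stimulus for several of them. Bulk RNA shows the sum over all cells of the organ, so more cells of a type and more RNA per cell cannot be told apart.

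The AU-rich elements and promoter motifs through which this gene class is usually described were looked up in the reference, and the sites in the members that the results turn on are given here. First come 30 bases of 3′ UTR around an AU-rich element, written 5′ to 3′ as DNA of the transcribed strand, with the element in capitals. The capitals mark TTATTTATT where it occurs and TATTTAT otherwise.
Fos: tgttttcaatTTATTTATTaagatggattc
Zfp36: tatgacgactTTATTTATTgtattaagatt
Atf3: aaaatattactTATTTATcccagtattcct
Jun: ttgcttgtgcaTATTTATaatagcgttcgt
Ier3: taaTATTTATgTATTTATgtatatcctcct
These windows lie, on GRCm39, at chr12:85523877-85523906 (plus strand) for *Fos*, chr7:28076375-28076404 (minus strand) for *Zfp36*, chr1:190902534-190902563 (minus strand) for *Atf3*, chr4:94937315-94937344 (minus strand) for *Jun* and chr17:36133381-36133410 (plus strand) for *Ier3*. TATTTAT was read on the transcribed strand only, and it is contained in TTATTTATT. It occurred in the 3′ UTR of the canonical transcript of 7 of the 10 members, and in 32.3% of 13385 tested coding genes. *Ier3* held 4 copies, *Zfp36* 3, *Fos* 2, and *Fosb*, *Jun*, *Jund* and *Atf3* 1 each, whereas *Junb*, *Ier2* and *Myc* held 0. Only *Fos* and *Zfp36* held the longer TTATTTATT, which occurred in 8.88% of the coding genes. A longer UTR is more likely to hold the element: among genes with a UTR within 10% of the length of *Ier3*'s, 18.1% held TATTTAT.

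The promoter windows come from RefSeq (table built on GRCm38.p6) and run from 250 bases before to 50 bases after the start. They were available for 8 members, and each was found by exact match on GRCm39, whose coordinates are given. Entries for *Ier2* and *Myc* were not used here. The sites below are those of the classical regulators of the class, SRF at the CArG box and CREB or ATF proteins at TGACG, and the motif is again in capitals.
Fos: agttccgcccagTGACGtaggaagtccatc
Atf3: ttaatagcattaCGTCAgcctgggattggt
Zfp36: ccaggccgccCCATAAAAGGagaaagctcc
The *Fos* window is at chr12:85520586-85520615 (plus strand), with TGACG starting at −66 from the RefSeq start. The *Atf3* window is at chr1:190915520-190915549 (minus strand), with the motif in reverse at −7. The *Zfp36* window is at chr7:28078692-28078721 (minus strand), with the CArG box at −58. The RefSeq starts of *Atf3* and *Zfp36* lie inside the annotated genes, whose 5′ ends are at chr1:190950241 and chr7:28079710. Read on both strands, TGACG occurred in the promoters of *Fos*, *Fosb*, *Junb* and *Atf3* and in 20.8% of 32851 promoters of the same length. Within these windows, the CArG box occurred in *Zfp36* among the 8 members and in 1.63% of all promoters. Sites more than 250 bases before the start were not read, so a member without a motif here may hold it farther upstream. The full TGACGTCA, which contains TGACG, and the AP-1 site TGANTCA occurred in 0 of the 8, against 1.79% and 7.81% of all promoters. TATAAA occurred in *Fos* and *Junb*, and in 13.6% of all promoters. Most members are also compact genes. The canonical transcripts have 1 to 4 exons, as do 20.9% of the tested coding genes. Apart from *Atf3* (47749 bases), the annotated genes with all their transcripts span 1248 to 7356 bases, against a median of 26394.

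Each library held 28826367 to 45266387 counts on genes. Values are CPM, in which TMM factors put all libraries on 1 scale, and tests are edgeR's quasi-likelihood tests over all 15070 genes with Benjamini-Hochberg adjustment, with an adjusted p under 0.05 named as changed. The deleted gene *Mcl1* fell in *Mcl1*Δhep livers to 25.0 to 34.0 CPM from 90.2 to 104 in WT (log2 fold change −1.77, SE 0.16, adjusted p = 0.000605). *Sting1* was at 2.11 to 2.53 CPM in WT and 1.16 to 2.70 in the livers labelled *Sting1*-/- (log2 fold change −0.33, adjusted p = 0.998), with overlapping groups. It was lower without overlap in *Mcl1*Δhep *Sting1*-/- livers (1.90 to 2.53 CPM) than in *Mcl1*Δhep livers (3.67 to 6.0 CPM), but did not pass the test there (−1.05, SE 0.29, adjusted p = 0.134). Reads on the gene were present in all 12 libraries, and the *Sting1* genotype is taken from the labels. These values are RNA. The study checked the knockout line at the level of protein, by Western blotting, and found that its splenocytes did not respond to a STING agonist. Libraries stood apart in 3 ways. Small structured RNAs took 2.37% and 1.36% of counts in *Mcl1*Δhep replicates 2 and 3 and 0.172 to 0.897% in the other 10, skeletal muscle genes took 0.173% in *Mcl1*Δhep replicate 3 and at most 0.000896% elsewhere, and Y-linked genes were expressed in WT replicates 2 and 3 and in *Mcl1*Δhep *Sting1*-/- replicate 1 only. No *Mcl1*Δhep and no *Sting1*-/- library expressed Y-linked genes, so sex and genotype are partly confounded in the comparisons of these groups with WT. Markers of hepatocytes, the defining cells of the labelled tissue, summed to 104000 to 168000 CPM over all 12 libraries.

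Per length of exon, the members covered a wide range of levels. TPM here divides counts by the length of all annotated exons of a gene and puts each library on the same sum. This length exceeds that of the canonical transcript for, among others, *Fosb* (6243 against 3782 bases), *Junb* (2381 against 1809) and *Zfp36* (3502 against 2822), which lowers their TPM. *Jund* had the highest level, with a median of 100 TPM over the 12 libraries and a range of 84.0 to 195. *Junb* followed with a median of 61.2 TPM (27.2 to 149), then *Ier2* with 35.3, *Zfp36* with 25.4 and *Jun* with 23.8 TPM. *Atf3* had a median of 6.68 TPM, *Myc* 6.54, *Ier3* 3.19 and *Fos* 1.93. *Fosb* was last at a median of 0.0987 TPM, with 2 to 23 reads per library. The ranges of neighbours in this order overlapped except between *Fos* (0.573 to 9.73 TPM) and *Fosb* (0.0293 to 0.315 TPM).

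**Figure D1:**
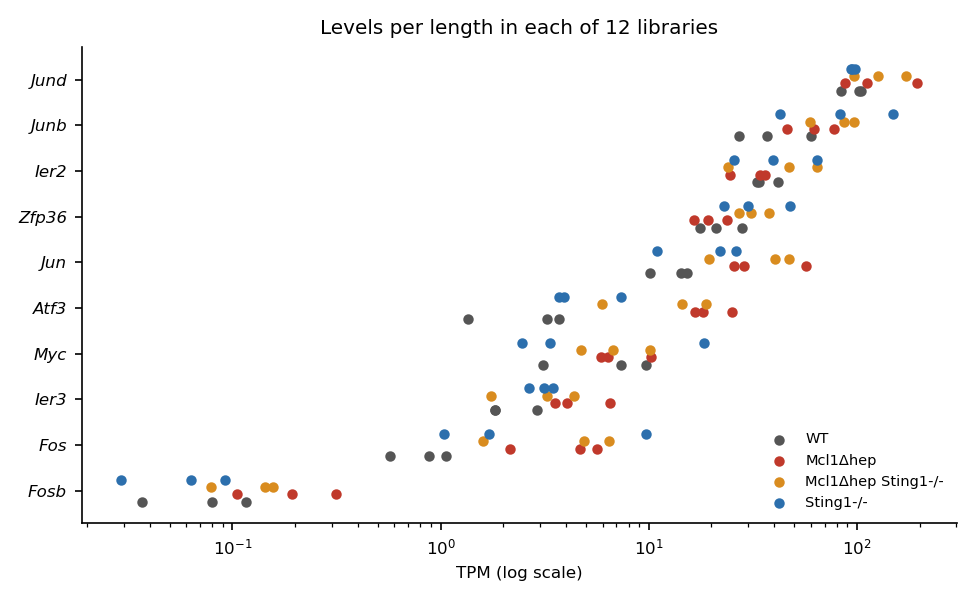
Level of each of the 10 genes in TPM (x axis, log scale) in each of 12 livers, with 1 point per library and 1 color per genotype. *Jund* lies between 84.0 and 195 TPM and *Fosb* below 0.315 TPM in all libraries.

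The question behind the first comparison is what the loss of MCL1 in hepatocytes changes in the liver. Among the 10 genes, *Atf3*, *Jun* and *Ier3* rose in *Mcl1*Δhep livers compared with WT, *Fos* was higher in every library without passing the test, and the other members did not pass it. These are 3 of 9 tested members (10.8% of all tested genes rose and 9.43% fell, 20.2% together). The median log2 fold change was 0.64 over the 9 members and −0.00 over all tested genes, and 7 of the 9 values were positive.

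*Atf3* (ENSMUSG00000026628, chr1:190902493-190950241), the stress-induced member, changed most. WT livers had 2.37, 0.949 and 2.28 CPM, and *Mcl1*Δhep livers 14.7, 13.3 and 14.0 CPM (1.87 ± 0.797 against 14.0 ± 0.726, mean ± SD, n = 3 each). The groups did not overlap, and the 3 *Mcl1*Δhep livers lay within 1.11-fold of each other. The log2 fold change was 2.87 (SE 0.43, edgeR adjusted p = 0.00227), a 7.31-fold rise, and it passed the test without any one of the 12 libraries (adjusted p = 0.00103 to 0.0126).

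*Jun* (ENSMUSG00000052684, chr4:94937271-94940459), the main partner of FOS in AP-1, had 12.8, 13.1 and 9.25 CPM in WT livers and 43.7, 26.6 and 28.7 CPM in *Mcl1*Δhep livers. Again the groups did not overlap, which held for 16.2% of all tested genes in this direction. The log2 fold change of 1.49 (SE 0.35, edgeR adjusted p = 0.0149) is a 2.82-fold rise. Without WT replicate 3, the lowest library, it was 1.35 and did not pass the test (adjusted p = 0.0605). *Junos*, a noncoding gene on the opposite strand, shares 528 exon bases with *Jun*, but its 3 to 16 reads per library are few beside the 280 to 2113 of *Jun*.

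*Ier3* (ENSMUSG00000003541, chr17:36132568-36133815) had 0.871, 0.593 and 0.594 CPM in WT livers and 1.80, 1.50 and 1.26 CPM in *Mcl1*Δhep livers, a difference without overlap that rests on 18 to 87 reads per library. Its log2 fold change was 1.09 (SE 0.31, edgeR adjusted p = 0.0304). This call was the least stable of the 3. It was lost without *Mcl1*Δhep replicate 1 (0.95, adjusted p = 0.0529), *Mcl1*Δhep replicate 2 (1.10, adjusted p = 0.0782), WT replicate 2 (0.99, adjusted p = 0.106) or WT replicate 3 (1.0, adjusted p = 0.0969). It was also lost with only the groups compared in the model (adjusted p = 0.0632), and with small RNA share (adjusted p = 0.112) or Y-linked expression (adjusted p = 0.122) as a covariate.

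*Fos* (ENSMUSG00000021250, chr12:85520658-85524047) was at 0.660, 0.386 and 0.594 CPM in WT livers, which is 13 to 25 reads, and at 3.23, 1.65 and 3.48 CPM in *Mcl1*Δhep livers. All *Mcl1*Δhep values were above all WT values, with a log2 fold change of 2.24 (SE 0.75), but the adjusted p was 0.0529. It passed the test in 3 of 12 fits that left out 1 library and in 4 of 7 other settings. Without *Sting1*-/- replicate 1, which is in neither group but adds to the shared estimate of the spread, the same difference of 2.24 had an adjusted p of 0.0134, and DESeq2 gave 2.36 (adjusted p = 0.00548). *Fosb*, the other FOS protein of the set, had 0.132, 0.208 and 0.066 CPM in WT and 0.476, 0.214 and 0.379 CPM in *Mcl1*Δhep livers. It was below the count filter over all 12 libraries. Without the filter its log2 fold change was 1.11 (edgeR adjusted p = 0.164), and DESeq2 gave 1.41 (adjusted p = 0.161). In the 10 fits without 1 library in which it met the filter, it was 0.89 to 1.41 (edgeR adjusted p = 0.0848 to 0.223).

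The other JUN proteins moved less. *Junb* had 23.3, 18.5 and 41.2 CPM in WT and 35.8, 35.9 and 57.9 CPM in *Mcl1*Δhep livers (log2 fold change 0.64, SE 0.41, edgeR adjusted p = 0.276), with overlapping groups. *Jund*, which many tissues express without a stimulus, had 46.4, 48.6 and 40.2 CPM in WT and 78.6, 47.5 and 58.6 CPM in *Mcl1*Δhep livers (0.45, SE 0.21, adjusted p = 0.138). *Junb* shares 173 exon bases with *Prdx2* on the opposite strand, a gene of 2797 to 5461 reads per library, and *Jund* shares 877 with *Gm11175*, which had 4 to 17. The sources used here do not give how strand was handled in counting, so reads of *Junb* and *Prdx2* in these bases cannot be told apart. *Ier3* (396 bases) and *Myc* (101 bases) also share exon sequence with noncoding genes of the opposite strand that were not used here, and *Zfp36* shares 125 bases with *Gm44710*, which had at most 6 reads.

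*Myc*, *Ier2* and *Zfp36* showed no difference that the test could separate from the spread between livers. *Myc* had 2.24, 5.72 and 7.59 CPM in WT and 6.83, 5.66 and 5.06 CPM in *Mcl1*Δhep livers (log2 fold change 0.18, SE 0.64, edgeR adjusted p = 0.864), and the 3 WT livers alone differed by 3.39-fold. *Ier2* was at 13.3, 14.8 and 18.4 CPM against 12.7, 12.2 and 17.3 CPM (−0.14, SE 0.34, adjusted p = 0.801). *Zfp36* was at 19.5, 17.6 and 28.3 CPM against 20.0, 21.9 and 18.2 CPM (−0.12, SE 0.25, adjusted p = 0.759). For *Zfp36*, the narrow error leaves little room for a change of the size seen for *Jun*, whereas for *Myc* the error is wide.

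**Figure D2:**
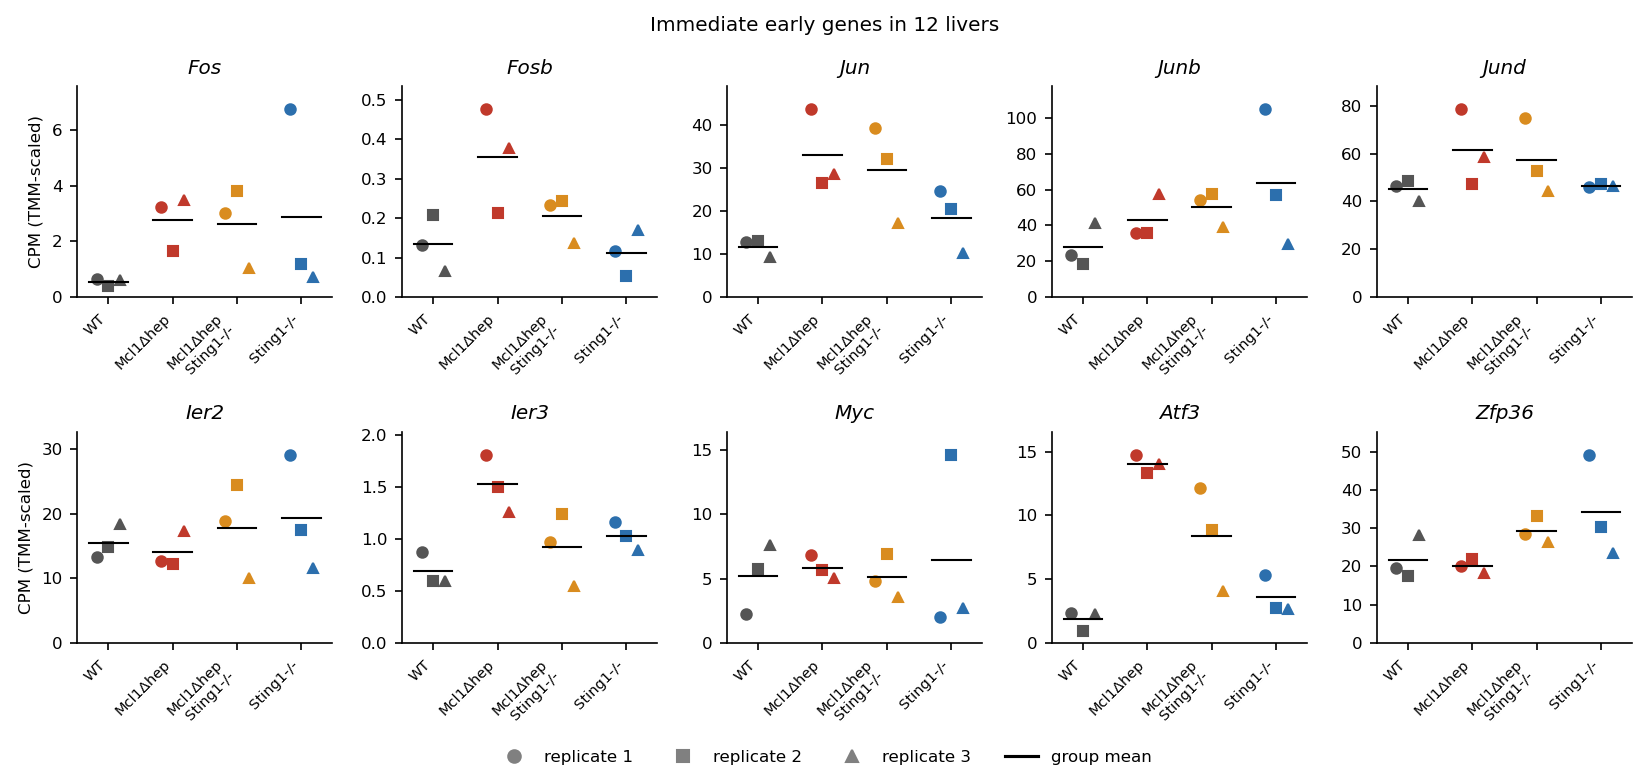
CPM (y axis, linear, own scale per panel) of each of the 10 genes in 12 livers by genotype, with 1 marker per replicate and a bar at the group mean. *Atf3* is at 13.3 to 14.7 CPM in *Mcl1*Δhep livers and at most 2.37 CPM in WT, whereas the 2 groups overlap for *Junb*, *Jund*, *Ier2*, *Myc* and *Zfp36*.

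The same question can be asked on the *Sting1*-/- background, by comparing *Mcl1*Δhep *Sting1*-/- with *Sting1*-/- livers, which shares no library with the first comparison. None of the 9 members passed the test there, where 0.803% of all genes did (121 genes with edgeR, 461 with DESeq2). *Atf3* had 12.1, 8.87 and 4.05 CPM in *Mcl1*Δhep *Sting1*-/- and 5.30, 2.76 and 2.65 CPM in *Sting1*-/- livers. The groups overlapped at 1 library, with a log2 fold change of 1.21 (SE 0.41, unadjusted p = 0.0115 and adjusted p = 0.248 from edgeR). *Jun* had 39.4, 32.1 and 17.2 CPM against 24.6, 20.4 and 10.2 CPM (0.68, SE 0.35, edgeR adjusted p = 0.509). Its double mutant livers were the higher ones on average, and the lowest of them lay inside the *Sting1*-/- range.

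*Fos* had its highest level of the series in a control liver of this comparison. *Mcl1*Δhep *Sting1*-/- livers had 3.01, 3.80 and 1.04 CPM, and *Sting1*-/- livers 6.75, 1.17 and 0.724 CPM (log2 fold change −0.13, SE 0.69, edgeR adjusted p = 0.970). Leaving out *Sting1*-/- replicate 1 turned the difference to 1.42. *Ier3* had 0.969, 1.24 and 0.547 CPM against 1.16, 1.03 and 0.893 CPM (−0.15, adjusted p = 0.914), and the ranges were nested. For the remaining members the log2 fold change lay between −0.34 (*Junb*) and 0.30 (*Jund*).

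Averaged over both backgrounds, the *Mcl1* deletion raised *Atf3* by 2.04 on the log2 scale (SE 0.30, edgeR adjusted p = 0.00111, 4.12-fold) and *Jun* by 1.09 (SE 0.25, adjusted p = 0.0124, 2.13-fold). Both passed the test without any one of the 12 libraries and under each of the 6 other settings tried. They are the 2 called members of 9 (9.90% of all tested genes rose in this average). *Fos* had an average of 1.06 (SE 0.50, adjusted p = 0.167), which became 1.83 (adjusted p = 0.0106) without *Sting1*-/- replicate 1. *Jund* had 0.37 (SE 0.15, adjusted p = 0.102), and it passed without *Mcl1*Δhep *Sting1*-/- replicate 3 (0.47, adjusted p = 0.0499) and with small RNA share as a covariate (0.51, SE 0.14, adjusted p = 0.0397). *Ier3* had 0.47 (adjusted p = 0.159). The averages of *Junb*, *Ier2*, *Myc* and *Zfp36* lay between −0.18 and 0.15.

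Whether the *Mcl1* effect differed between the backgrounds was tested as an interaction. It called 0 of the 9 members and 0 genes in all with edgeR (0.0% of genes, 2165 at an unadjusted p under 0.05, and 170 with DESeq2). Its value was negative, that is smaller on the *Sting1*-/- background, for 8 of the 9 members. The median was −0.81 over the members and −0.01 over all tested genes. These values come from the same livers, and those of *Jund*, *Zfp36* and *Myc* crossed 0 without 1 library. The interaction was −1.66 for *Atf3* (SE 0.58, edgeR adjusted p = 0.292), −1.24 for *Ier3* (SE 0.43, adjusted p = 0.292), −2.37 for *Fos* (SE 1.0, adjusted p = 0.329) and −0.81 for *Jun* (SE 0.49, adjusted p = 0.456). For *Fos* it was −0.82 without *Sting1*-/- replicate 1.

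The effect of the *Sting1* deletion itself was read in 2 comparisons. Between double mutant and *Mcl1*Δhep livers, 0 members and 0 of all genes passed the test (0.0% of genes, 3098 at an unadjusted p under 0.05, and 663 with DESeq2). *Atf3* was lower in the double mutants without overlap (4.05 to 12.1 against 13.3 to 14.7 CPM, log2 fold change −0.75, SE 0.40, edgeR adjusted p = 0.301), as was *Ier3* (0.547 to 1.24 against 1.26 to 1.80 CPM, −0.70, SE 0.30, adjusted p = 0.228). *Zfp36* was higher without overlap (26.3 to 33.2 against 18.2 to 21.9 CPM, 0.55, SE 0.25, adjusted p = 0.243). Such separation was seen for 9.28% of all genes in the lower and 8.97% in the higher direction. In TPM, *Atf3* and *Ier3* overlapped between these groups, whereas *Zfp36* did not. *Fos* and *Jun* were at similar means in both groups, with log2 fold changes of −0.09 (SE 0.69) and −0.16 (SE 0.34).

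Between *Sting1*-/- and WT livers, again 0 members and 0 genes in all passed (0.0% of genes, 821 at an unadjusted p under 0.05, and 51 with DESeq2), and all 9 tested members had a positive log2 fold change. Those of *Ier2*, *Myc* and *Jund* crossed 0 without 1 library. In CPM, *Sting1*-/- values were above all WT values for *Fos* (2.28, SE 0.75, edgeR adjusted p = 0.784), *Atf3* (0.91, SE 0.42, adjusted p = 0.910) and *Ier3* (0.54, SE 0.31, adjusted p = 0.998), which was so for 7.06% of all genes. In TPM, *Fos* and *Ier3* overlapped, with *Sting1*-/- replicate 3 (1.04 and 2.67) below WT replicate 1 (1.06 and 2.90), and *Atf3* did not. *Junb* had 105, 57.2 and 29.7 CPM in *Sting1*-/- livers (1.20, SE 0.41, adjusted p = 0.808), and *Zfp36* 49.1, 30.3 and 23.6 CPM (0.65, SE 0.25, adjusted p = 0.820). *Sting1*-/- replicate 1 gave the highest value of both. Without it, the log2 fold change of *Fos* fell to 0.73, that of *Junb* to 0.65 and that of *Zfp36* to 0.31.

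**Figure D3:**
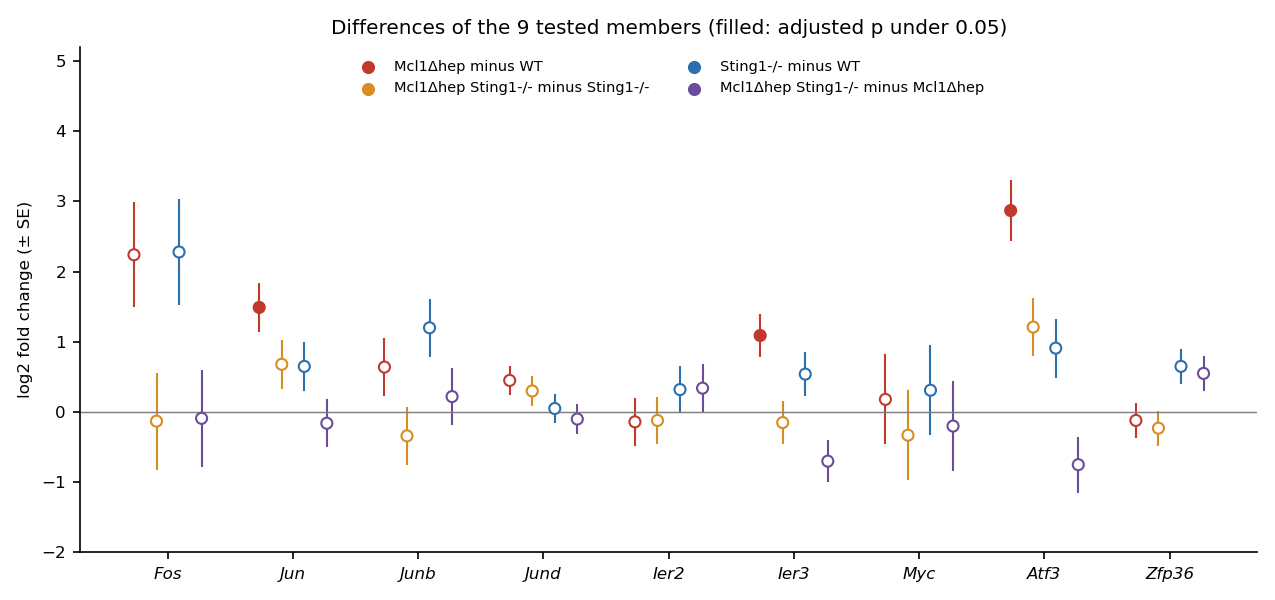
Log2 fold change (y axis) of the 9 tested genes in 4 comparisons, with bars of 1 standard error from edgeR and filled points at an adjusted p under 0.05. Only *Atf3*, *Jun* and *Ier3* in *Mcl1*Δhep minus WT are filled.

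Within a genotype, the livers differed in these genes more than in most others. The SD of log2 CPM between livers of a genotype was 1.02 for *Fos* and 0.93 for *Myc*, above that of 97.2% and 96.3% of the tested genes, with a median of 0.28 over all of them. It was 0.61 for *Atf3*, 0.60 for *Junb*, 0.51 for *Jun* and 0.50 for *Ier2*. *Jund*, with 0.27, and *Zfp36* and *Ier3*, with 0.34 and 0.35, were near the middle of all genes.

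The same livers were high or low in several members at once. *Mcl1*Δhep *Sting1*-/- replicate 3 had the lowest value of its genotype for 10 of 10 members, with *Fosb* at only 5 to 10 reads in this genotype. Its replicate 2 had the highest for 7. *Sting1*-/- replicate 1 had the highest value for 7 members and replicate 3 the lowest for 7. *Fos*, *Junb*, *Ier2* and *Zfp36* shared 1 order of the 3 livers in each of these genotypes. *Myc* departed from it, since its highest *Sting1*-/- value, 14.6 CPM, was in replicate 2, against 1.98 and 2.68 CPM in the others. In *Mcl1*Δhep livers replicate 1 had the highest value for 6 members, and replicate 2, the library with 2.37% small RNA, the lowest for 6. The highest values of WT livers were spread as 3, 3 and 4 over the replicates, and replicate 2 had the lowest for 5. These orders were not counted over all tested genes, so whether they are particular to the members was not tested.

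**Figure D4:**
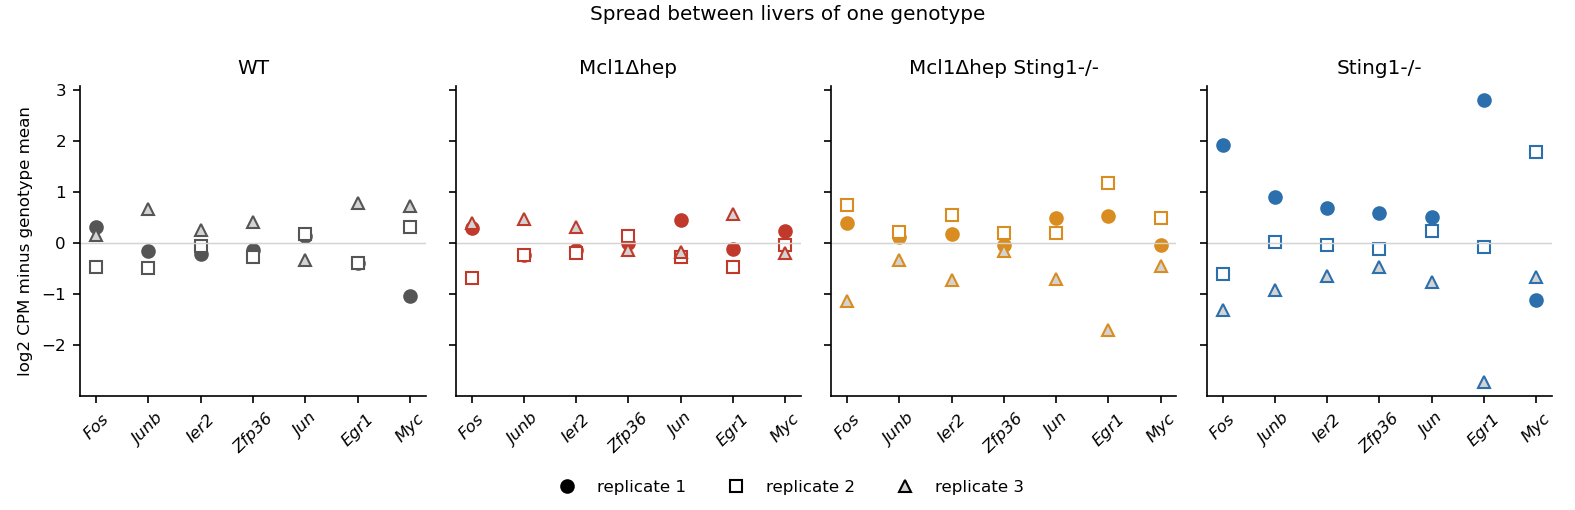
Log2 CPM minus the mean of the genotype (y axis) for 6 members and *Egr1* in the 3 livers of each genotype, with 1 marker shape per replicate. In *Sting1*-/- livers replicate 1 is above and replicate 3 below the mean for *Fos*, *Junb*, *Ier2*, *Zfp36*, *Jun* and *Egr1*, whereas *Myc* is highest in replicate 2.

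Over the 12 libraries, the gene whose log2 CPM was most like the mean of the tested members was *Egr1*, another immediate early transcription factor (Pearson r = 0.907, Spearman rho = 0.951, among 12550 genes). Then came *Ngfr* (0.906), a neurotrophin receptor that stellate cells express, *Nr4a1* (0.897), an orphan nuclear receptor of the same early class, *Slc36a4* (0.846) and *Chaf1b* (0.846). For *Fos* alone the first was again *Egr1* (r = 0.910), before *Chaf1b* (0.871) and *Tspan15* (0.855), and for *Myc* alone *Swap70* (0.856), *Hmgxb4* (0.794) and *Atosb* (0.791). These are descriptions over livers of which 3 each share a genotype, and they carry no test. *Egr1* was at 1.93, 1.93 and 4.36 CPM in WT, 8.61, 6.76 and 13.9 CPM in *Mcl1*Δhep, 25.1, 39.1 and 5.36 CPM in *Mcl1*Δhep *Sting1*-/- and 54.0, 7.40 and 1.18 CPM in *Sting1*-/- livers. It was low again in replicate 3 of both *Sting1*-/- genotypes.

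Among 49 tested genes on a list of other immediate early genes, 13 rose and 1 fell between *Mcl1*Δhep and WT livers, with a median log2 fold change of 0.44. Of all tested genes, 10.8% rose and 9.43% fell there. The largest rises were those of *Egr2* (2.93, SE 0.68, edgeR adjusted p = 0.0136), *Nr4a1* (2.85, SE 0.69, adjusted p = 0.0164) and *Nr4a3* (2.75, SE 0.47, adjusted p = 0.00369), transcription factors like most members. *Nr4a3* was near the floor in WT livers (0.0791, 0.0297 and 0.033 CPM) and at 0.89, 0.704 and 0.316 CPM in *Mcl1*Δhep livers. *Egr2* was also low in WT livers (0.0791, 0.267 and 0.429 CPM), so both fold changes rest on WT values near 0. *Gadd45b* (2.44, SE 0.50, adjusted p = 0.00843), a stress sensor, and *Btg2* (2.30, SE 0.49, adjusted p = 0.00930), an antiproliferative gene, rose as well. *Klf6*, a zinc finger factor, went from 14.9, 10.3 and 11.8 CPM to 36.7, 49.7 and 36.1 CPM. The gene that fell was *Trib1* (−0.83, SE 0.16, adjusted p = 0.00663), a pseudokinase. On the *Sting1*-/- background 0 of the 49 passed the test, where 0.803% of all tested genes did. Of the 14 genes called in the first comparison, 13 had the same sign there (92.9%), as had 83.7% of all 3050 genes called in it. The exception was *Nr4a1* (−0.33), whose *Sting1*-/- livers had 4.02, 3.50 and 0.676 CPM. Of the 3 called members, *Atf3* and *Jun* kept their sign and *Ier3* did not.

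**Figure D5:**
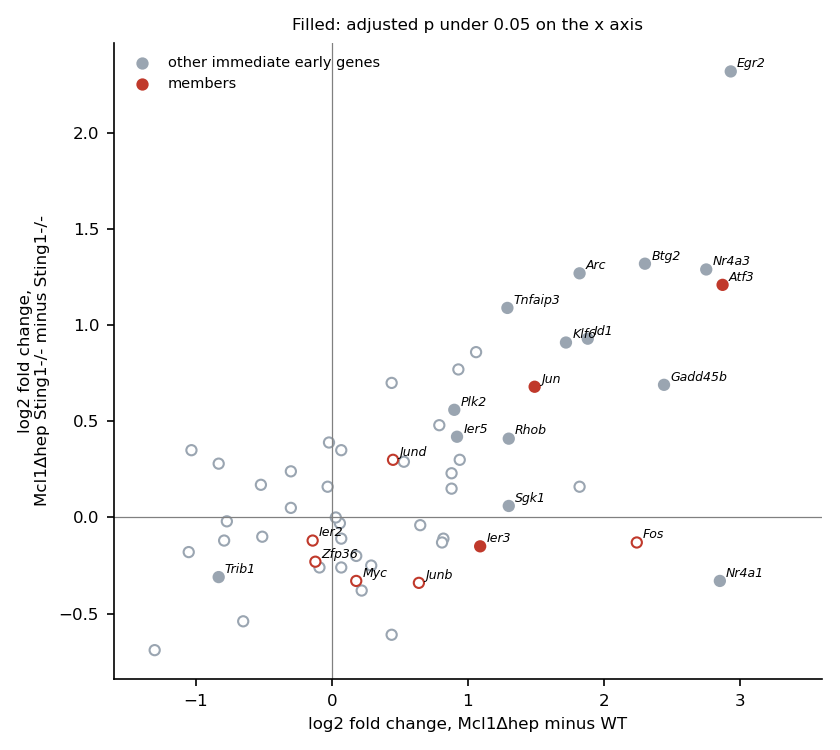
Log2 fold change of members (red) and other immediate early genes (gray) between *Mcl1*Δhep and WT livers (x axis) and between *Mcl1*Δhep *Sting1*-/- and *Sting1*-/- livers (y axis), with filled points at an edgeR adjusted p under 0.05 on the x axis. *Atf3* and *Jun* are positive on both axes, whereas *Fos*, *Ier3* and *Nr4a1* are positive on the x axis and slightly negative on the y axis.

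Upstream of the members, some genes of the signaling chain changed in RNA between *Mcl1*Δhep and WT livers, where 20.2% of all tested genes did. The share called in each list was not far from that. Unlike the members, these genes were not followed through the fits under other settings. Of 10 tested ligands, *Pdgfb* rose (0.87, edgeR adjusted p = 0.0138) and *Tgfa*, a ligand of EGFR, fell (−0.61, adjusted p = 0.0411). Of 14 receptors, 3 fell and 1 rose. *Egfr* went from 1050, 1060 and 1230 CPM to 427, 207 and 459 CPM (−1.61, SE 0.45, adjusted p = 0.0284), without overlap. *Met*, the receptor of hepatocyte growth factor, fell too (−1.09, adjusted p = 0.00897), as did *Lifr* (−1.17, adjusted p = 0.0283), and *Osmr*, the receptor of oncostatin M, rose (0.88, adjusted p = 0.0300). Of 25 MAP kinases and SRF-type factors, 1 rose (*Mapk3*, 0.44) and 4 fell (*Mapk9* −0.65, *Elk4* −0.65, *Map3k5* −0.57 and *Mapk14* −0.42). Of 13 feedback inhibitors, the phosphatases *Dusp8* (2.45, adjusted p = 0.0202) and *Dusp5* (2.11, adjusted p = 0.00342) rose and *Spry4* fell (−1.33, adjusted p = 0.0247). None of these lists held a called gene on the *Sting1*-/- background, where 0.803% of all tested genes were called.

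Partners and targets of the members were mixed between *Mcl1*Δhep and WT livers, where 10.8% of all tested genes rose and 9.43% fell. Of 13 AP-1 dimer partners, only *Jdp2* passed the test (1.12, edgeR adjusted p = 0.0348), and the median of the list was −0.03. Of 14 partners and antagonists of MYC, *Mxd3*, which competes for the partner MAX, rose (3.99, adjusted p = 0.00180), while *Mlxipl* (−1.05, adjusted p = 0.00864) and *Mxi1* (−0.67, adjusted p = 0.00576) fell. Of 20 growth genes that MYC is known to induce, *Ccnd1* (2.0, adjusted p = 0.0222), *Ldha* (0.75, adjusted p = 0.0394) and *Cdk4* (0.72, adjusted p = 0.0123) rose, and the median was 0.17. *Ccnd1* was at 184, 46.6 and 43.3 CPM in WT and 409, 345 and 344 CPM in *Mcl1*Δhep livers, so WT replicate 1 stood above the other WT livers. Of 8 tested AU-rich transcripts known as targets of ZFP36, the chemokines *Ccl4* (2.84, adjusted p = 0.00836), *Cxcl2* (2.65, adjusted p = 0.00722) and *Ccl2* (2.53, adjusted p = 0.00592) rose and *Vegfa* fell (−0.82, adjusted p = 0.0114). The median of this list was 1.44, at a log2 fold change of *Zfp36* itself of −0.12.

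Markers of other cells moved with the rise of *Atf3*, *Jun* and *Ier3*, and their part in it was not tested. Between *Mcl1*Δhep and WT livers, 10.8% of all tested genes rose and 9.43% fell. Of 17 monocyte and macrophage markers 10 rose, and the list summed to 998 to 1200 CPM against 536 to 787. Of 8 tested neutrophil markers 5 rose (10.7 to 24.2 against 3.22 to 5.32 CPM for the list), of 10 stellate cell markers 6 rose (1010 to 1080 against 498 to 751 CPM), and of 11 T and NK cell markers 4 rose (10.2 to 16.4 against 7.07 to 8.95 CPM). All 12 proliferation genes rose (137 to 256 against 44.7 to 46.8 CPM). Of these, 9 of 12 were also called on the *Sting1*-/- background, where 0.803% of all tested genes were. Of 7 B cell, 7 cholangiocyte and 8 sinusoidal endothelial markers tested, 0 passed the test between *Mcl1*Δhep and WT livers, and of 12 hepatocyte markers 1 fell. These are short lists, set against 20.2% of all tested genes called in either direction. No macrophage marker was at 0 in all libraries of a genotype.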

How the data were processed

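Total RNA of 12 mouse livers was sequenced on an Illumina NovaSeq, with genotype and replicate number taken from the labels. The authors deposited unnormalized counts of reads on Ensembl genes, made with STAR and featureCounts on GRCm39 according to the submitters' processing notes. Versions, annotation release, and use of strand are not given in the sources used here, and the labels and the methods of the study name different RNA extraction kits. The study calls the samples behind its group plots of liver RNA biological replicates, the labels do not name the animals, and p-values measure the spread between these samples. Depth was 28826367 to 45266387 counts per library, and the read counts behind the lowest members are given with their values.

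From the counts, edgeR 4.0.16 (R 4.3.3) gave TMM-scaled CPM and quasi-likelihood tests (filterByExpr, prior count of 2, all 12 libraries, common dispersion 0.0699), with p-values adjusted by Benjamini-Hochberg and read at 0.05. TPM used exon lengths of GENCODE vM39, which named 39533 identifiers, and identifiers without a length held at most 0.101% of a library's counts. *Ddit3* had more than 1 identifier and was not matched. The members and lists were chosen with earlier results of these data known. Named genes are the members, the deleted genes, up to 6 called genes of each list with the largest change, and the genes most like the members over the libraries with a mean CPM of at least 1. Alternatives were RLE size factors, no count filter, DESeq2 1.42.0, only the groups compared, a replicate block, 2 covariates, and leaving out each library. Same-numbered libraries were checked for shared deviations, and the numbers showed no common pairing over all genotypes. Both count tests were tested on simulated data. Libraries of a genotype were checked for duplicates, and none were found. Human samples were not analysed here. Python 3.11.15, pandas 2.3.3, numpy 2.4.6, and matplotlib 3.10.9 were used.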

Additional observations from a re-analysis of the deposited data

Results flagged for a closer look

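For *Ier3* and *Atf3*, the deletion of *Sting1* went with opposite directions in the presence and absence of *Mcl1*. *Atf3* was higher in every *Sting1*-/- liver than in every WT liver (2.65 to 5.30 against 0.949 to 2.37 CPM), and lower in every *Mcl1*Δhep *Sting1*-/- liver than in every *Mcl1*Δhep liver (4.05 to 12.1 against 13.3 to 14.7 CPM). The difference between the 2 effects was −1.66 on the log2 scale (SE 0.58). *Ier3* showed the same arrangement (0.893 to 1.16 against 0.593 to 0.871 CPM, and 0.547 to 1.24 against 1.26 to 1.80 CPM), with a difference of −1.24 (SE 0.43). These separations depend on the scaling. In TPM, *Atf3* of double mutant replicate 1 (18.9) was above *Mcl1*Δhep replicates 2 (16.7) and 3 (18.3), while *Sting1*-/- and WT stayed apart. *Ier3* overlapped in both comparisons. Double mutant replicate 2 was at 4.37 TPM against 4.04 in *Mcl1*Δhep replicate 2, and *Sting1*-/- replicate 3 at 2.67 against 2.90 in WT replicate 1. The interaction test did not pass the threshold for either gene (edgeR adjusted p = 0.292 for both), and over the fits without 1 library the adjusted p was 0.129 to 0.541 for *Atf3* and 0.148 to 0.541 for *Ier3*. Of all tested genes, 7.06% were higher without overlap in *Sting1*-/- than in WT livers. Lower values without overlap in double mutant than in *Mcl1*Δhep livers were seen for 9.28%. The share of genes with both was not counted, and the 2 genes were picked for showing both.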

How the results depend on the processing

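The rises of *Atf3* and *Jun*, averaged over both backgrounds, passed the test in each of the 18 alternative fits of that average, whereas in *Mcl1*Δhep minus WT the call of *Ier3* was lost in 7 of 19 alternative fits and *Fos* gained one in 7. Without 1 library, 1 to 4 members were called in *Mcl1*Δhep minus WT, the 1 being *Atf3* without WT replicate 3, where *Jun* was 1.35 (edgeR adjusted p = 0.0605). The number of genes called moved more. Without 1 library it was 1233 to 5232 in *Mcl1*Δhep minus WT (1233 without WT replicate 2, 1238 without *Mcl1*Δhep replicate 2, 1596 without WT replicate 3 and 5232 without *Mcl1*Δhep replicate 1), 0 to 3108 in *Mcl1*Δhep *Sting1*-/- minus *Mcl1*Δhep (highest without *Mcl1*Δhep replicate 1), 0 to 22 in *Sting1*-/- minus WT (highest without WT replicate 1), 1 to 249 in *Mcl1*Δhep *Sting1*-/- minus *Sting1*-/- (highest without *Mcl1*Δhep *Sting1*-/- replicate 3), 1711 to 4267 for the average and 0 to 1574 for the interaction (both highest without *Mcl1*Δhep replicate 1). With only the groups compared it was 1178, 2 in *Sting1*-/- minus WT and 17 in *Mcl1*Δhep *Sting1*-/- minus *Sting1*-/-. With small RNA share as covariate it was 490 in *Mcl1*Δhep minus WT and 1521 for the average, and with Y-linked expression 1531, 1 in *Mcl1*Δhep *Sting1*-/- minus *Mcl1*Δhep and 45 in *Mcl1*Δhep *Sting1*-/- minus *Sting1*-/-. DESeq2 called 663, 51, 461 and 170 genes where edgeR called 0, 0, 121 and 0 (both *Sting1* comparisons, *Mcl1*Δhep *Sting1*-/- minus *Sting1*-/-, interaction). The cause of these shifts was not tested.

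Over all genotypes the replicate numbers showed no common pairing, since 3 of 18 same-numbered pairs had a correlation of deviations over 0.1 (−0.541 to 0.251). Between *Mcl1*Δhep *Sting1*-/- and *Sting1*-/- livers, however, the same-numbered pairs had 0.068, 0.251 and 0.18, and the different-numbered pairs −0.174 to −0.006. Whether these libraries are paired was not tested. With a replicate block, 2591 genes and 4 members were called in *Mcl1*Δhep minus WT, the added member being *Fos* (adjusted p = 0.048), and *Fos* in *Mcl1*Δhep *Sting1*-/- minus *Sting1*-/- became 0.23 and the average of *Myc* 0.13.

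Small values changed sign, and none of these passed the test. With Y-linked genes as covariate, *Ier2* was 0.01 in *Mcl1*Δhep minus WT and −0.20 in the interaction and the average of *Myc* was 0.11, and with small RNA share the interaction of *Ier2* was −0.10. Without 1 library the log2 fold change crossed 0 in *Mcl1*Δhep minus WT for *Myc* (−0.19 to 0.55) and *Zfp36* (−0.26 to 0.11). In *Mcl1*Δhep *Sting1*-/- minus *Mcl1*Δhep it did so for *Fos* (−0.46 to 0.29), *Jun* (−0.42 to 0.12), *Jund* (−0.34 to 0.12) and *Myc* (−0.47 to 0.01). In *Sting1*-/- minus WT it did so for *Ier2* (−0.09 to 0.59), *Myc* (−1.13 to 0.74) and *Jund* (−0.02 to 0.11). In *Mcl1*Δhep *Sting1*-/- minus *Sting1*-/- it did so for *Fos* (−0.59 to 1.42), *Ier2* (−0.42 to 0.29), *Ier3* (−0.42 to 0.12), *Junb* (−0.68 to 0.21), *Zfp36* (−0.44 to 0.12) and *Myc* (−0.75 to 1.11). The averages that crossed 0 were those of *Ier2* (−0.28 to 0.07), *Myc* (−0.29 to 0.64) and *Junb* (−0.02 to 0.42), and the interactions were those of *Jund* (−0.39 to 0.06), *Ier2* (−0.28 to 0.44), *Zfp36* (−0.34 to 0.25) and *Myc* (−0.93 to 0.94). Of the log2 fold changes of the 9 members tested, 598 values without 1 library and 346 under other settings kept their direction and their side of the threshold. *Fosb*, with 2 to 23 reads per library, did not meet the count filter over all 12 libraries.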
